A study of Mus musculus with 7 samples.

Results

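The genes described here are 29 glutamate receptor and glutamate transporter genes, taken by name as a list of the vesicular transporters, neuronal plasma membrane transporters, AMPA, NMDA, kainate and delta receptor subunits and metabotropic receptors. They are 29 of 52636 gene identifiers counted in each library, and 28 of them were among the 21817 genes that passed a filter on low counts. The only member below that filter was Grm6.

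RNA was sequenced from the dorsal midbrain of newborn mice, to ask what the POU-domain transcription factor Brn3b (gene Pou4f2) does in midbrain development. In controls 1 Brn3b allele was floxed and the other intact, in the presence of En1-Cre (Brn3b flox/+ :: En1-Cre, labelled Heterozygote), and the conditional knockout mice carried 1 floxed and 1 null allele with the same driver (Brn3b flox/- :: En1-Cre, cKO, labelled Homozygote). Both groups therefore share En1-Cre and a floxed allele, and recombination lowers the gene dose in controls too. En1-Cre acts in midbrain and hindbrain, and recombination of the floxed allele removes Brn3b and turns on an alkaline phosphatase reporter in its place. The tissue was sequenced in bulk, so cells without Cre contribute to each library.

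The 3 controls are named control 1 (postnatal day 4, P4), control 2 (P3) and control 3 (P4), and the 4 knockouts cKO 1 (P4), cKO 2 (P2), cKO 3 (P4) and cKO 4 (P2). No control was taken at P2, so age and genotype cannot be told apart for cKO 2 and cKO 4. Counts on genes came to 23588248, 40411968 and 26577011 in controls 1 to 3 and to 28116582, 67792192, 39251318 and 87572085 in cKO 1 to 4. Values are given in this order throughout, as CPM (reads of a gene per 1e6 reads on all genes, with TMM scaling), and means are given ± SD over 3 controls or 4 cKO mice.

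Glutamate is loaded into synaptic vesicles by the vesicular transporters Slc17a6 (VGLUT2), Slc17a7 (VGLUT1) and Slc17a8 (VGLUT3), and is cleared by plasma membrane transporters. AMPA, NMDA and kainate receptors are ion channels assembled from subunits, so the subunit mixture sets conductance, calcium entry and kinetics, and metabotropic receptors act through G proteins. In the superior colliculus, the main part of the dorsal midbrain, excitatory projection neurons use VGLUT2, and juvenile NMDA receptors are rich in the subunit encoded by Grin2b.

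The targeted gene followed the labels in every mouse. Pou4f2 (chr8:78433010-78436645, minus strand, GRCm38) measured 46.5, 47.4 and 45.8 CPM in controls and 9.65, 9.67, 10.6 and 11.6 CPM in cKO mice. The cKO mean was 22.3% of the control mean, with no overlap, a log2 fold change of -2.16 ± 0.132 (SE) and an adjusted p of 0.000566 in the edgeR quasi-likelihood test. It was the single gene called, which is 0.00458% of the 21817 tested.

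One library stood apart from its group. On the first principal component of log CPM, which held 60.1% of the variance, cKO 3 lay at -42.16, inside the range of the controls (-33.34, -81.18 and -42.0), while cKO 1, cKO 2 and cKO 4 lay at 49.4, 78.71 and 70.57. Its Pou4f2 level was that of the other knockouts. The level of cKO 3 fell within the range of the controls for 18 of 28 tested members, against 2 for cKO 1, 1 for cKO 2 and 5 for cKO 4. Counts and fold changes of members are therefore given with and without cKO 3. The choice of cKO 3 was made from these same data, so p-values without it hold only given that choice. Without cKO 3 the knockouts are cKO 1 at P4 and cKO 2 and cKO 4 at P2, an age with no control.

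No member was called by the edgeR test with all 7 mice (0 of 28 at an adjusted p under 0.05). At an unadjusted p under 0.05 edgeR gave 12 members, 9 higher and 3 lower in cKO mice, or 32.1% and 10.7% of those tested beside 16.7% and 13.7% of all genes. DESeq2 called 2 members, both lower (7.14%, beside 3.04% of all genes lower and 7.41% higher), and these were Slc17a7 and Slc1a6. The limma-voom fit with sample quality weights called 12 members higher and 10 lower, beside 24.2% and 24.3% of all genes.

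Without cKO 3, edgeR called 12 members higher and 7 lower (42.9% and 25.0%), where 23.7% and 23.1% of all genes were called higher and lower. DESeq2 without cKO 3 called 12 members higher and 8 lower, beside 20.6% and 19.3% of all genes. With all mice, the groups did not overlap for 5 members, all lower in cKO mice (17.9%), and for 0 higher, beside 8.01% and 6.03% of all genes. Those 5 were Slc17a7, Slc1a6, Grin2c, Grm2 and Grm4. Leaving out cKO 3 raised the number without overlap to 12 higher and 9 lower, beside 28.2% and 28.0% of all genes. With cKO 3 kept and control 3 left out it was 2 higher and 6 lower, beside 10.5% and 13.0% of all genes. With 3 against 4 mice an exact permutation test of 1 gene cannot give a two-sided p below 0.0571 when the one-sided p is doubled.

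**Figure D1:**
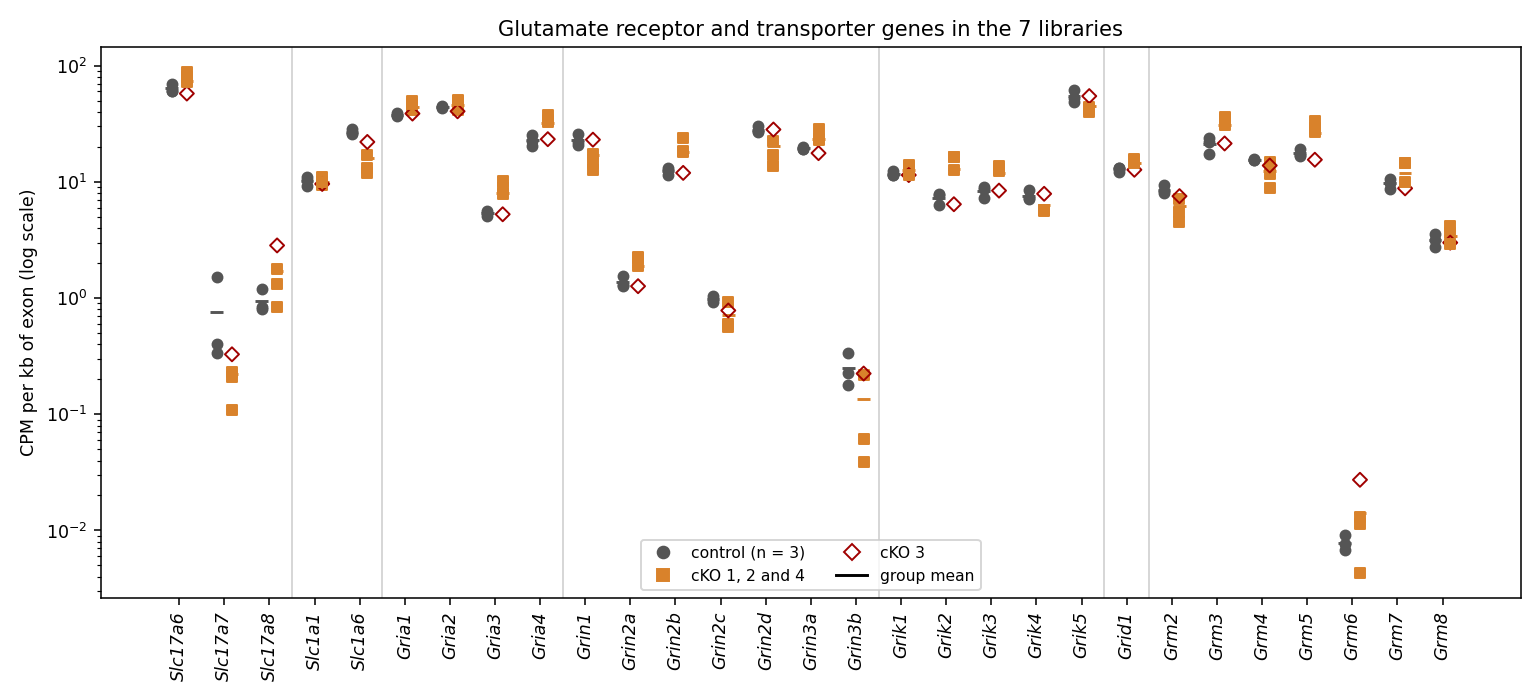
Level of each of the 29 genes in each library in CPM per kilobase of exon on a log axis, with controls as grey circles, cKO 1, 2 and 4 as orange squares, cKO 3 as open red diamonds and group means as bars; vertical lines part the families. By control means Slc17a6 and Grik5 have the highest levels and Grm6 the lowest (by cKO means Gria2 and Grik5 are level, at 45.6 and 45.3 CPM per kb), and cKO 3 lies with the controls for most genes.

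Among the vesicular transporters, Slc17a6 dominated. Slc17a6 (ENSMUSG00000030500.6, chr7:51622006-51671119, plus strand) measured 379, 326 and 327 CPM in controls and 432, 473, 311 and 394 CPM in cKO mice. Only cKO 3 fell below the controls, the other 3 knockouts lay above all of them, and the groups overlapped. The log2 fold change was 0.23 ± 0.157 (SE) with an adjusted p of 0.335, and without cKO 3 it was 0.33 with an adjusted p of 0.0273 (both edgeR). Per kilobase of exon, Slc17a6 held a share of 97.4% ± 0.958 of the vesicular transporter level in controls and 97.3% ± 1.75 in cKO mice.

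Slc17a7, the vesicular transporter of cortical and cerebellar granule neurons, was low, with 44, 331 and 59 counts in controls and 35, 73, 72 and 50 counts in cKO mice. These counts correspond to 1.83, 8.27 and 2.15 CPM in controls and 1.25, 1.13, 1.77 and 0.588 CPM in cKO mice. Control 2 held far more than any other library, and every cKO mouse lay below every control. The log2 fold change was -1.82 ± 0.555 (SE), with an adjusted p of 0.138 in edgeR and 0.0246 in DESeq2, and without control 2 it was -0.76 with an adjusted p of 0.402 in edgeR. Without cKO 3 it was -2.11 with an adjusted p of 0.0062 in edgeR.

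Markers of cortex and hippocampus were also highest in control 2. Their 5 genes summed to 22.4, 37.1 and 21.6 CPM in controls and to 16.8, 23.6, 21.1 and 24.8 CPM in cKO mice, with Neurod6 the most abundant at a mean of 12.7 CPM in controls. Neurod2, a transcription factor of excitatory neurons, measured 8.67, 16.1 and 9.35 CPM in controls and 5.63, 7.79, 8.75 and 8.97 CPM in cKO mice. All 5 passed the filter, and edgeR called 0, with 0 at an unadjusted p under 0.05, 0 in DESeq2 and 0 in limma-voom. The part of such tissue in the level of Slc17a7 was not tested.

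Slc17a8, the vesicular transporter of scattered neurons that also release serotonin, acetylcholine or GABA, measured 5.6, 3.77 and 3.94 CPM in controls and 6.23, 8.43, 13.4 and 3.98 CPM in cKO mice. The highest level was in cKO 3 and the groups overlapped. Its log2 fold change was 0.85 ± 0.381 (SE) with an adjusted p of 0.164 in edgeR, and 0.49 with an adjusted p of 0.17 without cKO 3.

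Serotonin neuron genes, a list chosen after the values of Slc17a8 were seen, were also highest in cKO 3. Slc6a4, the serotonin transporter, measured 11.2, 1.72 and 3.47 CPM in controls and 4.1, 14.0, 47.9 and 2.57 CPM in cKO mice. Tph2, which makes serotonin in the brain, measured 2.9, 0.824 and 1.35 CPM in controls and 1.85, 4.45, 17.2 and 0.917 CPM in cKO mice. Together with Fev these 3 genes summed to 15.4, 2.62 and 4.93 CPM in controls and 6.02, 19.4, 70.8 and 3.71 CPM in cKO mice.

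The libraries with the most serotonin neuron transcripts, cKO 3 and cKO 2, were also those with the most Slc17a8. En1, which marks the region around the border of midbrain and hindbrain, measured 3.48, 3.05 and 3.32 CPM in controls and 2.78, 5.39, 12.3 and 7.78 CPM in cKO mice, again highest in cKO 3. Its relative En2, expressed in the same region, measured 15.8, 12.6 and 11.2 CPM in controls and 11.1, 22.4, 22.7 and 27.4 CPM in cKO mice, highest in cKO 4, where Slc17a8 was at the level of the controls. How much of the Slc17a8 level came from such tissue was not tested.

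**Figure D2:**
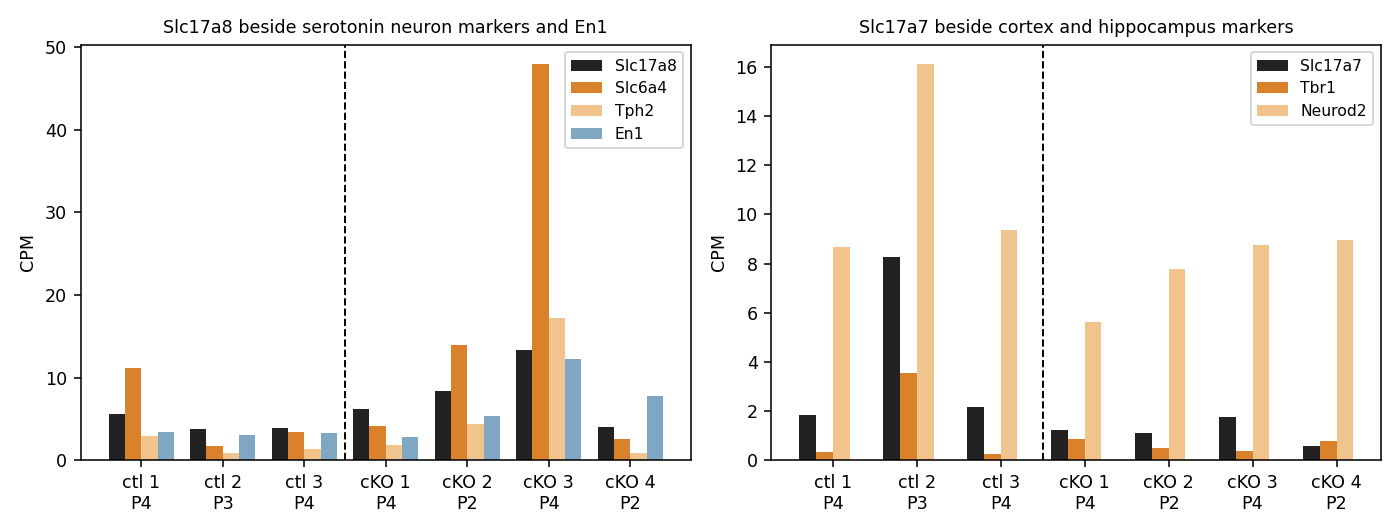
Left, CPM of Slc17a8, of the serotonin neuron genes Slc6a4 and Tph2 and of En1 in each library; right, CPM of Slc17a7 and of the cortex and hippocampus markers Tbr1 and Neurod2. Library names carry the age, controls stand left of the dashed line, Slc17a8 and Slc6a4 are highest in cKO 3 (13.4 and 47.9 CPM), and Slc17a7 and Neurod2 are highest in control 2 (8.27 and 16.1 CPM).

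Both plasma membrane transporters on the list belong to neurons. Slc1a6 (EAAT4), which is known from cerebellar Purkinje cells, measured 55.5, 61.2 and 56.9 CPM in controls and 36.4, 28.5, 47.5 and 25.6 CPM in cKO mice. Every cKO mouse lay below every control, with cKO 3 nearest to them. The log2 fold change was -0.75 ± 0.205 (SE), with an adjusted p of 0.138 in edgeR and 0.031 in DESeq2. Without cKO 3 it was -0.95 with an adjusted p of 0.000209 in edgeR. In bulk tissue, fewer cells of a type and less RNA per cell cannot be told apart.

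The 3 Purkinje cell markers summed to 35.9, 31.5 and 28.6 CPM in controls and 42.1, 38.4, 35.6 and 31.9 CPM in cKO mice, of which Car8, also made outside the cerebellum, gave a mean of 30.0 CPM in controls, and Pcp2, the most specific of them, never passed 1.55 CPM. The mean of Pcp2 was 0.752 CPM for control and 0.391 CPM for cKO libraries (log2 fold change -1.0), control 2 held the highest level, the groups overlapped, and without control 2 the log2 fold change was 0.12. The other markers lay in the opposite direction, with Car8 at 0.23 and with overlap. Ppp1r17 was higher in every knockout than in any control, both before (0.21) and after (0.25) the GC content and exon length correction described further on. The part of Purkinje cells in the level of Slc1a6 was not tested. edgeR called 0 of these 3, with 0 at an unadjusted p under 0.05, 0 in DESeq2 and 0 in limma-voom. Slc1a1 (EAAT3) measured 85.8, 91.1 and 76.8 CPM in controls and 77.5, 90.6, 79.3 and 82.3 CPM in cKO mice. All cKO values of Slc1a1 lay inside the control range, with a log2 fold change of -0.04 and an adjusted p of 0.854, and of -0.02 and 0.893 without cKO 3 (edgeR). After the GC content and exon length correction described further on, the log2 fold change was -0.37 with an adjusted p of 0.148 in edgeR, and all knockouts but cKO 3 lay below the controls.

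The 4 AMPA receptor genes summed to 110.0 ± 3.21 CPM per kb in controls and 130.0 ± 17.2 CPM per kb in cKO mice, with overlap. Gria2 encodes the subunit whose edited form makes the channel nearly impermeable to calcium. It measured 667, 691 and 705 CPM in controls and 651, 768, 630 and 785 CPM in cKO mice. The cKO values lay on both sides of the controls, and the log2 fold change of 0.04 ± 0.124 (SE) had an adjusted p of 0.828 in edgeR (0.09 and 0.494 without cKO 3).

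Gria4, the subunit of fast channels, measured 160, 129 and 142 CPM in controls and 214, 236, 147 and 208 CPM in cKO mice. Gria3 measured 53.5, 50.5 and 55.8 CPM in controls and 78.2, 100, 51.9 and 86.9 CPM in cKO mice. Gria1, the subunit prominent in activity-dependent insertion at synapses, measured 229, 222 and 237 CPM in controls and 252, 302, 234 and 282 CPM in cKO mice. For these 3 genes cKO 3 lay among the controls and the other 3 knockouts lay above them.

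The log2 fold changes of Gria4, Gria3 and Gria1 were 0.48, 0.57 and 0.22, with adjusted p of 0.138, 0.138 and 0.247 in edgeR. Without cKO 3 they were 0.6, 0.73 and 0.28, with adjusted p of 0.000962, 0.000393 and 0.0427.

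Of the 4 AMPA shares, that of Gria2 alone separated the groups, while the Gria2 level did not. In the other families only the Grin2c and Grm3 shares separated, and the rest overlapped. No such share exists for all genes, and by level 6.03% of all genes were higher and 8.01% lower without overlap. Gria2 made up 38.4%, 41.6% and 40.2% of the summed CPM per kb in controls and 33.4%, 33.6%, 37.6% and 36.3% in cKO mice. Every cKO share, that of cKO 3 included, lay below every control share, with means of 40.1% ± 1.61 and 35.2% ± 2.06, a difference of -4.84 percentage points. The Gria4 share was 20.7% ± 1.89 in controls and 24.5% ± 2.33 in cKO mice, the Gria3 share 4.89% ± 0.116 and 6.12% ± 0.866, and the Gria1 share 34.4% ± 0.395 and 34.2% ± 1.22. These last 3 shares overlapped between the groups. After the trend with GC content and exon length described further on was removed, the Gria2 share was 44.0% ± 4.59 in controls and 32.8% ± 6.31 in cKO mice, and the groups overlapped. The shares are a description without a test, and the calcium permeability they bear on was not measured.

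NMDA receptor genes gave 85.4 ± 4.08 CPM per kb in controls and 81.4 ± 7.43 CPM per kb in cKO mice, and single subunits lay in opposite directions. With the trend with GC content and exon length removed, the log2 fold changes of all 7 were negative, from -0.64 for Grin3b to -0.13 for Grin2b. Grin2b, the subunit of slow juvenile receptors (ENSMUSG00000030209.14, chr6:135713233-136173511, minus strand), measured 317, 285 and 326 CPM in controls and 447, 593, 297 and 462 CPM in cKO mice. Grin2a, which gains ground as synapses mature, measured 27.7, 22.6 and 23.4 CPM in controls and 40.1, 39.4, 22.7 and 33.6 CPM in cKO mice. Grin3a, a subunit that lowers calcium entry in young neurons, measured 235, 243 and 235 CPM in controls and 290, 351, 217 and 283 CPM in cKO mice. In all 3 genes, cKO 1, cKO 2 and cKO 4 lay above every control and cKO 3 did not.

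The obligatory subunit gene Grin1 measured 201, 250 and 215 CPM in controls and 170, 140, 224 and 122 CPM in cKO mice. Grin2d, found in early and in midbrain neurons, measured 179, 202 and 181 CPM in controls and 150, 113, 188 and 91.1 CPM in cKO mice. Grin2c, the subunit of cerebellar granule cells, was low, at 4.65, 5.27 and 4.93 CPM in controls and 4.63, 3.0, 3.94 and 2.82 CPM in cKO mice. Grin1 and Grin2d lay below the controls in all knockouts but cKO 3, and Grin2c lay below them in all 4, with control 1 and cKO 1 almost level.

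Grin3b had at most 30 counts in any library and a log2 fold change of -0.94 ± 0.636 (SE), with an adjusted p of 0.32 in edgeR and 0.0196 in limma-voom, where its log2 fold change was -1.68. Of the 7 NMDA genes 0 were called by edgeR, with 2 at an unadjusted p under 0.05 (both higher, beside 16.7% of all genes), 0 by DESeq2 and 7 by limma-voom (3 higher and 4 lower, where limma-voom called 24.2% of all genes higher and 24.3% lower). The log2 fold changes were 0.54 for Grin2b, 0.47 for Grin2a, 0.26 for Grin3a, -0.44 for Grin1, -0.47 for Grin2d and -0.47 for Grin2c, with adjusted p from 0.14 to 0.273 (edgeR).

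Without cKO 3, edgeR called 3 NMDA genes higher and 2 lower, beside 23.7% and 23.1% of all genes. Their log2 fold changes were 0.69 for Grin2b (adjusted p 0.000747), 0.62 for Grin2a (0.00214), 0.37 for Grin3a (0.0141), -0.63 for Grin1 (0.00249) and -0.67 for Grin2d (0.00397). Grin2c at -0.53 (adjusted p 0.0857) and Grin3b at -1.39 (0.0865) were not called in edgeR.

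As shares of the NMDA level per kb, Grin2b made up 15.5%, 12.8% and 15.6% in controls and 21.2%, 27.5%, 14.4% and 26.4% in cKO mice. Grin2d made up 32.7%, 33.7% and 32.3% in controls and 26.5%, 19.6%, 33.9% and 19.4% in cKO mice. Grin1 made up 26.7% ± 1.8 in controls and 20.7% ± 4.99 in cKO mice. All of these overlapped because of cKO 3, and only Grin2c, at 1.15% ± 0.0247 and 0.875% ± 0.171, had no overlap. With the trend with GC content and exon length removed, the Grin2c share was 0.967% in controls and 1.03% in cKO mice, with overlap. The Grin2d and Grin2b shares were then 28.7% and 17.7% in controls and 27.9% and 19.6% in cKO mice. Shares rest on all annotated exons merged, 9700 bp for Grin1 and 6658 bp for Grin2d, whose longest transcripts have 4276 bp and 5431 bp. The order of the subunits thus depends on the length used, and shares by other lengths are not reported here.

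The ratio of Grin2d to Grin2b per kb was 2.11, 2.64 and 2.07 in controls and 1.25, 0.711, 2.36 and 0.736 in cKO mice. The ratio of Grin2a to Grin2b per kb, often used as a gauge of receptor maturation, was 0.121, 0.11 and 0.0996 in controls and 0.124, 0.092, 0.106 and 0.101 in cKO mice. The first ratio was lower than in any control in 3 knockouts, whereas the second differed by less than the spread within groups. The corrected ratio of Grin2d to Grin2b was 1.62 ± 0.0501 in controls and 1.43 ± 0.215 in cKO mice, with overlap.

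Kainate receptor genes summed to 89.4 ± 5.77 CPM per kb in controls and 88.9 ± 0.45 CPM per kb in cKO mice. Grik2, a subunit that forms channels alone (ENSMUSG00000056073.16, chr10:49094833-49788766, minus strand), measured 103, 83.8 and 104 CPM in controls and 168, 215, 85.1 and 215 CPM in cKO mice. Grik3 measured 80.7, 65.6 and 78.1 CPM in controls and 117, 123, 75.5 and 111 CPM in cKO mice. Grik2 and Grik3 lay above the controls in 3 of 4 cKO mice, with cKO 3 among the controls, and their log2 fold changes were 0.82 ± 0.287 and 0.51 ± 0.181 (SE; adjusted p 0.138 for both in edgeR). Without cKO 3 they were 1.04 and 0.64, with adjusted p of 0.000114 and 0.000707 in edgeR. Among P4 mice only, cKO 3 included, they were 0.29 and 0.27, with an adjusted p of 0.989 for both in edgeR.

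Grik5, the most abundant kainate gene per kb and a subunit that needs a partner to form a channel, measured 252, 321 and 271 CPM in controls and 226, 206, 283 and 221 CPM in cKO mice. Grik4, its close relative, measured 43.4, 50.4 and 42.1 CPM in controls and 34.4, 34.3, 47.1 and 33.8 CPM in cKO mice. Both were below every control in all knockouts except cKO 3, with log2 fold changes of -0.27 and -0.28 and adjusted p of 0.239 and 0.249, and without cKO 3 of -0.37 and -0.41 with 0.0162 and 0.0107 (edgeR). Grik1 measured from 76.8 to 83.8 CPM in controls and from 77.0 to 93.6 CPM in cKO mice, with log2 fold changes of 0.09 with and 0.13 without cKO 3 (adjusted p 0.625 and 0.345 in edgeR).

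Within the kainate family, Grik5 held a share of 60.7% ± 3.75 of the level per kb in controls and 50.9% ± 7.39 in cKO mice, and Grik2 held 8.24% ± 1.42 and 14.5% ± 5.2. Both shares overlapped between the groups through cKO 3, at 61.6% and 7.22%. With the trend with GC content and exon length removed, the Grik5 share was 55.4% in both groups and the Grik2 share 10.6% in controls and 11.6% in cKO mice.

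The delta receptor gene on the list, Grid1, which acts in synapse formation with cerebellins rather than as a glutamate-gated channel, measured 77.8, 72.8 and 78.2 CPM in controls and 93.8, 90.4, 75.8 and 87.3 CPM in cKO mice. Here too 3 knockouts lay above the controls and cKO 3 among them, with a log2 fold change of 0.19 and an adjusted p of 0.311, and without cKO 3 of 0.24 and 0.0633 (edgeR).

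Metabotropic receptors fall into Gq-coupled (Grm5 here) and Gi-coupled kinds (the other 6). Grm5 measured 197, 172 and 174 CPM in controls and 301, 344, 159 and 277 CPM in cKO mice. Grm3, a Gi-coupled receptor also made by astrocytes, measured 72.5, 52.6 and 67.3 CPM in controls and 107, 110, 65.3 and 94.0 CPM in cKO mice. In cKO 3, Grm3 lay among the controls and Grm5 below them, while the other 3 knockouts lay above in both genes. Grm5 had a log2 fold change of 0.58 ± 0.231 (SE) and Grm3 one of 0.55 ± 0.201, with adjusted p of 0.143 and 0.138 in edgeR. Without cKO 3 these were 0.76 and 0.69, with adjusted p of 0.000247 and 0.00117 in edgeR.

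Of 6 astrocyte markers, 4 had positive and 2 negative log2 fold changes, with Gfap at -0.29 and Aldh1l1 at -0.18. They summed to 850, 788 and 819 CPM in controls and 1140, 1080, 853 and 1060 CPM in cKO mice, with Slc1a3 the most abundant. edgeR called 0 of 6, with 2 higher at an unadjusted p under 0.05 (16.7% of all genes). DESeq2 called 1 higher (7.41% of all genes) and limma-voom 3 higher (24.2%). The sum was above the controls in every knockout and least so in cKO 3. The median log2 fold change of the list was 0.24, and -0.12 after the trend with GC content and exon length was removed. Aqp4 was higher in every knockout than in any control before that removal and overlapped after it, and Slc1a3 overlapped before and was lower after. The part of astrocytes in the level of Grm3 was not tested.

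Grm2, a presynaptic brake on release, measured 40.9, 45.6 and 39.1 CPM in controls and 34.8, 27.1, 36.9 and 22.3 CPM in cKO mice. Grm4, another presynaptic receptor, measured 92.0, 93.4 and 91.7 CPM in controls and 88.0, 70.0, 82.7 and 53.3 CPM in cKO mice. Every knockout, cKO 3 included, lay below every control for both, with log2 fold changes of -0.47 ± 0.186 and -0.33 ± 0.173 (SE) and adjusted p of 0.143 and 0.214 in edgeR. Without cKO 3 these were -0.59 and -0.4, with adjusted p of 0.00852 and 0.0507 in edgeR. Grm7 and Grm8 overlapped, with log2 fold changes of 0.31 and 0.12, and without cKO 3 of 0.43 and 0.18 (adjusted p 0.034 and 0.346 in edgeR).

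Grm6, the receptor of retinal ON bipolar cells, had 1, 2 and 1 counts in controls and 2, 4, 6 and 2 counts in cKO mice and was not tested. Retinal markers were near 0 as well, as their 5 genes summed to between 1.38 and 2.75 CPM per library, with Nrl the most abundant and Crx and Prph2 without a count in 3 and 1 libraries.

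Among the 7 metabotropic genes listed, Grm3 had a share of 29.4%, 24.5% and 29.3% of the level per kb in controls and 33.3%, 34.4%, 30.5% and 36.6% in cKO mice, with no overlap. After the same removal the Grm3 share was 26.6% in controls and 35.4% in cKO mice, again with no overlap. The Grm4 share was 20.5% ± 1.59 and 13.9% ± 4.19 and the Grm5 share 23.4% ± 0.764 and 28.5% ± 4.64, both with overlap. After the removal the Grm5 share was 27.0% in controls and 25.6% in cKO mice, with overlap, while the Grm4 share (18.0% and 15.1%) and the Grm2 share (10.1% and 7.54%) were lower in every knockout than in any control.

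**Figure D3:**
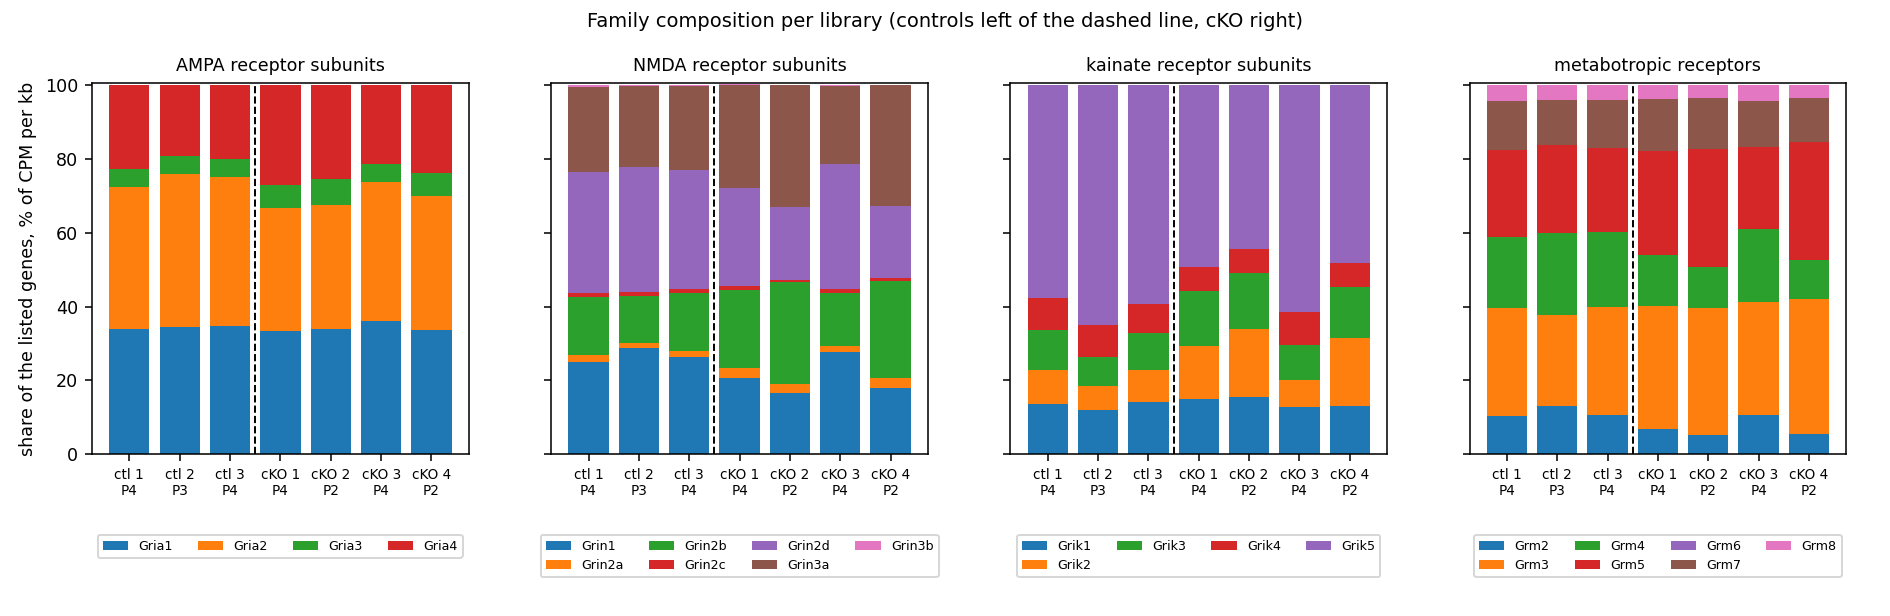
Share of each gene in the summed CPM per kilobase of exon of its family, in percent, for each library with its age, with controls left of the dashed line. Gria2 takes 38.4% to 41.6% of the AMPA level in controls and 33.4% to 37.6% in cKO mice, and the NMDA mixture of cKO 3 resembles that of the controls.

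The direction of a member went with the GC content of its longest transcript, and also with its span, as given below. Of 9 members with a GC content under 45%, 9 were higher in cKO mice, of 8 members between 45% and 50%, 7 were higher, and of 11 members at 50% or more, 10 were lower. Over all tested genes in the same ranges the share that was higher was 64.8%, 58.7% and 35.1%. Across the 28 tested members, which share libraries and are not independent replicates, GC content and log2 fold change had a Pearson r of -0.72 and a Spearman rho of -0.76, and across 21775 genes -0.28 and -0.31.

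The same split was visible library by library. The 17 tested members under 50% GC differed from the control mean by a median log2 of 0.47, 0.59, -0.06 and 0.25 in cKO 1 to 4, and the 11 members at 50% or more by -0.31, -0.64, -0.07 and -0.85. Among all genes, the tenth with the lowest GC content had medians of 0.34, 0.40, -0.05 and 0.29, and the tenth with the highest had -0.34, -0.64, -0.01 and -0.59. Thus cKO 3 lacked the trend that the other 3 knockouts showed, and whether the trend arose in tissue or in library preparation was not tested.

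Members were also long genes, with a median span of 203804 bp against 15029 bp over all tested genes. Their exons had a median length of 6174 bp against 3407 bp, and their longest transcripts a median GC content of 48.2% against 48.8%. Log2 span and log2 fold change had a Pearson r of 0.72 and a Spearman rho of 0.65 over the 28 members. Over 21775 genes these were 0.22 and 0.3. Whether direction followed GC content or span was not tested. After the correction described next, the rho over the 28 members was 0.49 for span and -0.4 for GC content.

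After the trend with GC content and exon length was removed from each library, 0 of 28 members and Pou4f2 alone among all genes (0.00458%) were called by edgeR. At an unadjusted p under 0.05 edgeR gave 2 members higher and 6 lower, beside 11.9% and 14.0% of all genes. The log2 fold change of Grik2 was then 0.14 in place of 0.82, that of Gria3 0.04 in place of 0.57, that of Grm5 0.06 in place of 0.58 and that of Grin2b -0.13 in place of 0.54. Slc17a7, Slc1a6 and Grm2 lay below the controls in every knockout both with and without the correction, at -1.66, -0.42 and -0.3 after it. Grm3 was 0.54 after it and 0.55 before. Gria2, with long annotated exons and a longest transcript poor in GC, went to -0.6. Slc17a8 was at 0.72, Gria1 at 0.01, Gria4 at 0.18, Grik3 at 0.34, Grik4 at -0.36, Grid1 at 0.02, Grm4 at -0.13 and Grm7 at 0.08. The sign turned for 8 members, namely Slc17a6 (-0.03), Gria2, Grin2a (-0.15), Grin2b, Grin3a (-0.19), Grik1 (-0.17), Grik5 (0.01) and Grm8 (-0.33). The groups did not overlap for 5 members after the correction, Slc17a7, Slc1a6, Grin2b, Grin3a and Grm2, all lower in cKO mice (17.9%), and for 0 higher, beside 9.03% and 5.61% of all genes.

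**Figure D4:**
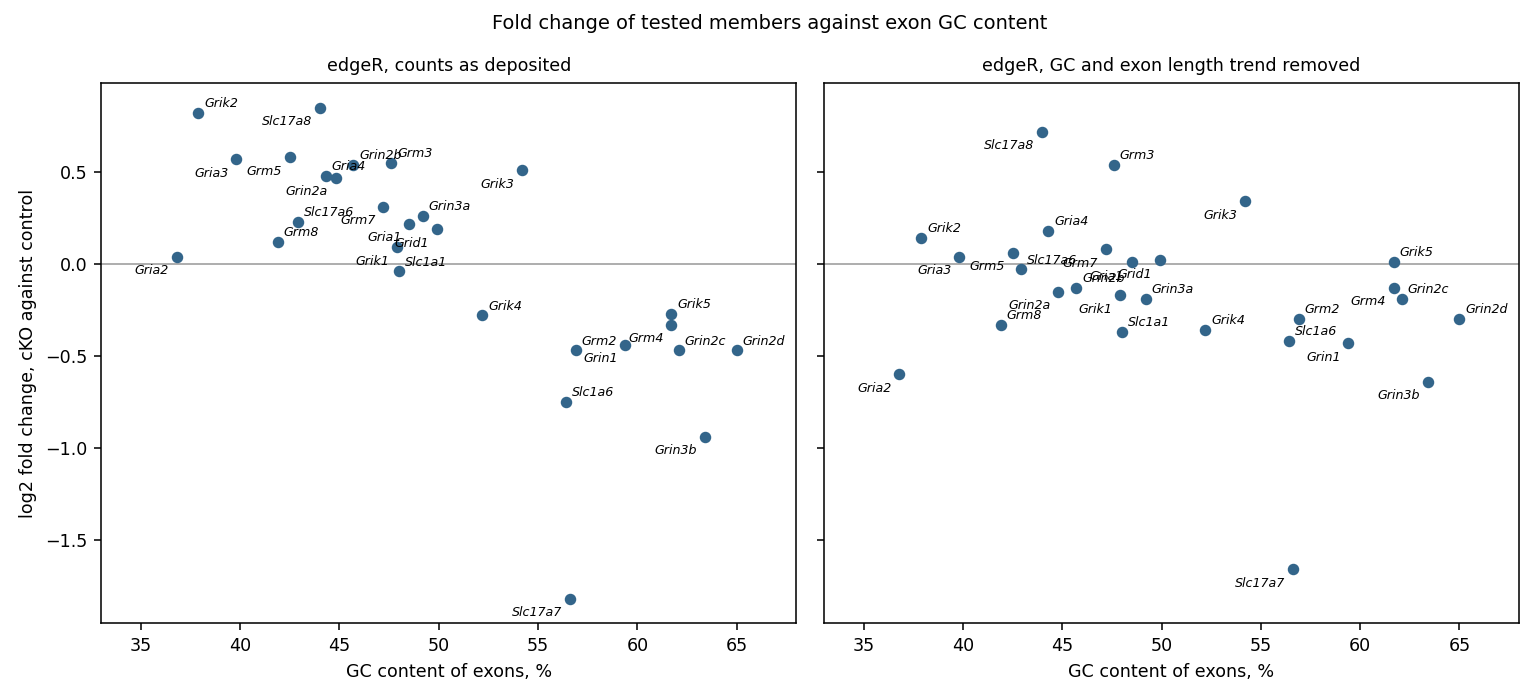
Log2 fold change of the 28 tested members (cKO against control, edgeR) against GC content in percent. GC content is that of the longest transcript, though the axis names exons. The left panel shows counts as deposited, and the right panel follows removal of the trend with GC content and exon length from each library. On the left, 10 of 11 members at 50% GC or more lie below 0; on the right, Grik2 lies at 0.14 and Slc1a6 at -0.42.

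Genes that work with these receptors, 54 in 7 lists, all passed the filter. edgeR called 0 of 54, with 16 higher and 6 lower at an unadjusted p under 0.05 (16.7% and 13.7% of all genes). DESeq2 called 8 higher and 2 lower (7.41% and 3.04% of all genes), and limma-voom 22 higher and 10 lower (24.2% and 24.3%). edgeR without cKO 3 called 22 higher and 9 lower (23.7% and 23.1% of all genes). Their median log2 fold change was 0.03, beside 0.16 for the members and 0.0 for all genes. After the GC content and exon length correction these medians were 0.0, -0.14 and -0.02.

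Of 12 AMPA auxiliary subunits, 4 were higher and 8 lower. Cnih2, a cornichon that aids AMPA receptor export and slows its gating, was lowest, at 344, 458 and 348 CPM in controls and 191, 135, 354 and 137 CPM in cKO mice. Shisa6, which holds AMPA receptors at the synapse, was highest, at 24.5, 23.4 and 25.6 CPM in controls and 42.3, 48.1, 23.5 and 44.1 CPM in cKO mice. Both showed the gap between cKO 3 and the other 3 knockouts, with log2 fold changes of -0.91 and 0.69 (adjusted p 0.138 for both in edgeR, and 0.0493 and 0.0511 in DESeq2).

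Both kainate auxiliary genes were above the controls in all knockouts but cKO 3. Neto1 measured 19.3, 15.6 and 17.2 CPM in controls and 37.9, 42.9, 18.5 and 28.1 CPM in cKO mice, and Neto2 had a log2 fold change of 0.68 where Neto1 had 0.88. Neto2 measured 109, 113 and 107 CPM in controls and 170, 219, 103 and 211 CPM in cKO mice. In cKO 3, Neto1 lay inside the control range and Neto2 below it.

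Among 6 cerebellins and neuronal pentraxins, proteins that organise synapses from outside the cell, Nptx2 was lowest, at 61.6, 69.1 and 62.5 CPM in controls and 48.7, 33.3, 50.5 and 30.7 CPM in cKO mice. No knockout reached the control range, and the log2 fold change of -0.66 had an adjusted p of 0.138 in edgeR and 0.0396 in DESeq2. Cbln2 was highest at 0.1, with 122, 124 and 115 CPM in controls and 133, 139, 105 and 138 CPM in cKO mice.

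In the postsynaptic scaffold, 10 of 18 genes were higher and 8 lower. Dlgap2 measured 6.51, 4.52 and 6.79 CPM in controls and 15.5, 15.6, 7.17 and 12.8 CPM in cKO mice, so that every knockout was above every control, with a log2 fold change of 1.11 (adjusted p 0.138 in edgeR and 0.015 in DESeq2). Dlgap3, a relative from the same family of PSD-95 binding proteins, was lowest at -0.55 (adjusted p 0.142 in edgeR). It measured 235, 302 and 259 CPM in controls and 195, 139, 253 and 139 CPM in cKO mice, where cKO 3 alone lay among the controls.

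For glutamate supply and glial uptake, 5 of 8 genes were higher. The glutamine transporter Slc38a1 measured 159, 129 and 155 CPM in controls and 254, 343, 152 and 311 CPM in cKO mice (log2 fold change 0.84), and the liver-type glutaminase Gls2 was lowest at -0.55, with 4.9, 3.25 and 3.69 CPM in controls and 3.21, 2.14, 3.33 and 2.15 CPM in cKO mice. Slc38a1 of cKO 3 and Gls2 of cKO 3 lay among the controls.

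Of 3 RNA editing enzymes edgeR called 0, with 2 at an unadjusted p under 0.05, 2 in DESeq2 and 3 in limma-voom, and the groups overlapped for all 3. All of these were higher, as were 16.7%, 7.41% and 24.2% of all genes by the same rules. The log2 fold change was highest for Adar, at 0.72 (adjusted p 0.138 in edgeR), and lowest for Adarb1, which edits the Gria2 transcript, at 0.32 (adjusted p 0.204 in edgeR). Adar measured 81.3, 56.5 and 71.1 CPM in controls and 124, 137, 73.9 and 124 CPM in cKO mice, and 1365 of its 8118 exon bases lie opposite Chrnb2. Adarb1 measured 81.0, 71.7 and 83.5 CPM in controls and 113, 104, 73.3 and 103 CPM in cKO mice. For both enzymes cKO 3 lay among the controls and the other 3 knockouts above.

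Among 5 genes of metabotropic receptor signalling, Itpr1, the calcium store channel downstream of Grm5, measured 17.4, 16.8 and 16.9 CPM in controls and 33.2, 34.0, 18.7 and 30.4 CPM in cKO mice. Every knockout lay above every control, with a log2 fold change of 0.77 (adjusted p 0.138 in edgeR and 0.0269 in DESeq2). Gnao1, a G protein subunit, was lowest at -0.05, with 905, 990 and 882 CPM in controls and 871, 937, 897 and 865 CPM in cKO mice.

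Most of these differences were smaller once the trend with GC content and exon length was removed. The log2 fold change was then -0.45 for Cnih2, 0.4 for Shisa6, 0.4 for Neto1, 0.26 for Neto2 and -0.28 for Nptx2. It was -0.25 for Dlgap3, 0.25 for Slc38a1, -0.31 for Gls2, 0.55 for Adar, 0.02 for Adarb1 and 0.22 for Itpr1. Dlgap2 was at 1.13 and Cbln2 at 0.12, while Gnao1 was at -0.2. Of the 54 genes, 2 higher (Dlgap2 and Itpr1) and 3 lower (Nptx2, Cacng8 and Dlgap1) had no overlap before the correction, beside 6.03% and 8.01% of all genes. After it these were 3 higher (Dlgap2, Itpr1 and Neto1) and 4 lower (Cnih2, Homer2, Dlgap4 and Slc1a3), where 5.61% and 9.03% of all genes separated.

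The 8 pan-neuronal genes summed to 7180, 8080 and 7120 CPM in controls and 6570, 7350, 7020 and 6910 CPM in cKO mice, with Stmn2 the most abundant and 0 called by edgeR. At an unadjusted p under 0.05, 1 was higher and 4 lower (16.7% and 13.7% of all genes). DESeq2 called 1 higher and 0 lower (7.41% and 3.04%), and limma-voom 2 higher and 5 lower (24.2% and 24.3%). Within the list, 6 of the 8 had negative log2 fold changes (median -0.24, and -0.4 after the GC content and exon length correction) and Map2, with means of 1140 CPM for control and 2000 CPM for cKO libraries, had 0.81. Stmn2 (-0.29) and Snap25 (-0.2) were lower in every knockout than in any control before that correction and overlapped after it, while Syt1 overlapped before it (0.25) and was lower in every knockout after it (-0.13). The part of neuron content in the members' levels was not tested.

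Markers of GABAergic neurons, 3 genes, summed to 481, 490 and 489 CPM in controls and 560, 615, 484 and 548 CPM in cKO mice, with Gad1 the most abundant and 0 called by edgeR. At an unadjusted p under 0.05, 1 was higher (16.7% of all genes). DESeq2 called 1 higher (7.41%), and limma-voom 2 higher and 1 lower (24.2% and 24.3%). Gad2 was above every control in every knockout, both before (0.65) and after (0.37) the correction, whereas Slc32a1 was at -0.48 and -0.08, with overlap.

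Dorsal midbrain genes, 8 in number and all past the filter, summed to 950, 1060 and 1040 CPM in controls and 1030, 1280, 903 and 1390 CPM in cKO mice, with Tfap2b the most abundant and 0 called by edgeR. At an unadjusted p under 0.05, 2 were higher (16.7% of all genes). DESeq2 called 0, and limma-voom 3 higher and 1 lower (24.2% and 24.3%). The list also holds En1 and En2, and its lowest gene, Tal2, measured from 0.996 to 1.9 CPM. All 8 had counts in each library. Pou4f1, a relative of Pou4f2, measured 120, 122 and 118 CPM in controls and 97.0, 96.3, 98.7 and 118 CPM in cKO mice. Pou4f1 was lower in every knockout than in any control, both before (-0.23, adjusted p 0.226 in edgeR) and after the correction (-0.31). Control 3 and cKO 4 were almost level before the correction.

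Promoters were read from RefSeq for GRCm38.p6, where 20 of 29 members had at least 1 entry, 25 in all. In the 250 bases before each start, the letters ATAATTAAT, close to the AT-rich sites that Brn3 proteins are known to bind, occurred on either strand in 1 member, Slc17a6, and in 0.259% of 32851 promoters. The shorter TAATTA, which ATAATTAAT contains, occurred in 2 members, Slc17a6 and Slc17a8, and in 4.84% of all promoters. Both windows lie before an internal start of the gene and overlap 0 annotated exons of it. They are printed because these are the vesicular transporters of the list with such letters, with the matching letters in capitals (in Slc17a6 the reverse complement, ATTAATTAT). A match is a description and not a binding site, and no binding was measured here. The Slc17a6 window is chr7:51624387-51624636 (plus strand), with the match starting 83 bases before the start, and the Slc17a8 window is chr10:89599816-89600065 (minus strand), with the match starting 141 bases before.
Slc17a6: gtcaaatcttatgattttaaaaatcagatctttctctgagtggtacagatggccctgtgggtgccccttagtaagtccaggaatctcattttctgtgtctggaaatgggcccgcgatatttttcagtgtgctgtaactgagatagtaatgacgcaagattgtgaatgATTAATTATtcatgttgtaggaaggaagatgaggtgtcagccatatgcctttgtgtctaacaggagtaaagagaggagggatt
Slc17a8: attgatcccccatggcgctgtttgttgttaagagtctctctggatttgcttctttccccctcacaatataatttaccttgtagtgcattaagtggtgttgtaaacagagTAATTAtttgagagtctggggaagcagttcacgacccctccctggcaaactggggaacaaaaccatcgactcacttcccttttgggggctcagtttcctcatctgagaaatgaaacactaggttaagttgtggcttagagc

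Some members share sequence with neighbouring transcripts on the opposite strand, and the strand setting of the counting is not given in the sources used here. Grin3b shares 1059 of its 3296 exon bases with Tmem259, Slc1a1 shares 2631 of 8257 with 4430402I18Rik, and Grin1 shares 1307 of 9700 with Grin1os. For these genes, and for Grin2d (643 bases) and Grm2 (470 bases), reads from the 2 strands may not have been told apart. The same holds for the Purkinje cell marker Pcp2, with 941 of 1828 exon bases opposite Pet100.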

How the data were processed

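RNA of 7 dorsal midbrains was sequenced from poly(A)-selected, strand-marking libraries. The authors aligned reads with TopHat2 and Bowtie2 to GRCm38.p5 (mm10) and deposited HTSeq counts per gene, which are raw counts; the strand and overlap options are not given in the sources used here. Reads assigned to no gene were 31.0% to 38.2% of each file and were left out. Of 52636 identifiers, 52403 matched GENCODE vM21 (GRCm38), which gave names, exon lengths, GC content and coordinates. Exon length is that of all annotated exons of a gene merged, and GC content is that of its longest transcript.

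Groups were compared with the quasi-likelihood test of edgeR 4.0.16 (R 4.3.3) with TMM factors, after genes failing a minimum count of 10 or a total of 15 were removed, and p-values were adjusted over 21817 genes (Benjamini-Hochberg, threshold 0.05). Levels are CPM, and between genes CPM per kilobase of exon. Alternatives were DESeq2 1.42.0, limma 3.58.1 (voom with quality weights), RLE factors, no filter, age as covariate, P2 or P4 cKO mice only, P4 mice only, each mouse left out, other lengths for shares, and a trend on GC content and exon length removed with mgcv 1.9.3. Chosen after seeing the data were GC-corrected shares and ratio, DESeq2 without cKO 3 and the serotonin neuron list. So were counts of genes other than members without overlap after that correction or leaving out control 3 or cKO 3. For members, these counts were planned. Fits were tested on simulated data, but the outcome is not reported here and no result rests on it.

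All 29 members are named, and from each of 7 lists of related genes the highest and lowest log2 fold change. Cell type marker lists are given by their sums. A gene of the cortex and hippocampus list is not reported here and is not in its sum. Members and lists were chosen with earlier results of these data known. Single marker genes were named after their values were seen.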

Additional observations from a re-analysis of the deposited data

Results flagged for a closer look

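In 3 of 53 sets of 4 cKO values, 1 mouse lay farther from the rest than Dixon's 95% limit on the gap over the range allows for 4 values. About 1 in 20 such sets pass it by chance, or 2.65 of 53, and in all 3 the mouse was cKO 3. Grik4 measured 47.1 CPM in cKO 3, against 33.8 to 34.4 CPM in the other 3 knockouts and 42.1 to 50.4 CPM in controls. The Grik4 share of the kainate level per kb was 8.87% in cKO 3, against 6.4% to 6.53% and 7.97% to 8.83%. The Grin2a share of the NMDA level per kb was 1.52% in cKO 3, against 2.53% to 2.66% and 1.4% to 1.88%.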

How the results depend on the processing

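The number of genes called by edgeR was 1 with all mice. It was 1994 with DESeq2, 10583 with limma-voom, and from 1 to 9867 when each mouse was left out (9867 without cKO 3). For controls against P2 cKO mice it was 10425, against P4 cKO mice 1, and among P4 mice only 0. Members called were 0 of 28 with edgeR (12 at an unadjusted p under 0.05), 2 with DESeq2, 22 with limma-voom, and from 0 to 19 when each mouse was left out (19 without cKO 3). For controls against P2 cKO mice they were 21 (11 higher and 10 lower), against P4 cKO mice 0, and among P4 mice only 0. The fit against P2 cKO mice called 10425 genes, whose share of those tested is not reported here. The 21 is therefore not read as a result about the members. Members whose groups did not overlap were 5, and from 5 to 21 when each mouse was left out (8 without control 3, 21 without cKO 3). Among P4 mice only, log2 fold changes were smaller in size than with all mice for all but Slc17a8 (1.05), Gria2 and Slc1a1 (edgeR). They were 0.29 for Grik2, 0.25 for Gria3, 0.31 for Grm5, 0.21 for Grin2b and 0.07 for Slc17a6. Slc1a6 was at -0.42 and Grin1 at -0.07. The P4 knockouts are cKO 1 and cKO 3, so the parts of age and of cKO 3 were not told apart.

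The Gria2 share difference of -4.84 percentage points was -11.18 after the GC content and exon length correction and from -5.67 to -4.07 when each mouse was left out. The Grin2b share difference of 7.74 was 1.91 after that correction, 2.2 among P4 mice only and from 6.02 to 10.41 when each mouse was left out.

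With all mice edgeR called 0 members, so keeping the side of the threshold means not being called, whatever the size of the fold change. Of 448 member log2 fold changes under 16 alternatives, 370 kept their direction and side of the threshold, and 64 kept their direction and passed it. The 64 were 22 with limma-voom, 21 against P2 cKO mice, 19 without cKO 3 and 2 with DESeq2. The other 14 turned. After the GC content and exon length correction these were Slc17a6 (-0.03), Gria2 (-0.6), Grin2a (-0.15), Grin2b (-0.13), Grin3a (-0.19), Grik1 (-0.17), Grik5 (0.01) and Grm8 (-0.33). Slc1a1 was 0.04 with limma-voom, 0.01 against P2 cKO mice and 0.02 without control 2. Gria2 was -0.04 with age as a covariate, -0.1 against P4 cKO mice and -0.1 among P4 mice only. The cause was not tested.

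No paired analysis was possible because the labels give no litter, pair or day shared by a control and a cKO mouse. Grm6 had too few counts to be tested.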

Other observations

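The other marker lists describe what else the tissue held, and edgeR called 0 genes of any of them. Oligodendrocyte lineage genes (7, Olig1 the most abundant) summed to 388, 398 and 353 CPM in controls and 430, 358, 411 and 324 CPM in cKO mice. Microglia genes (5, Csf1r the most abundant) summed to 116, 124 and 145 CPM in controls and 118, 103, 119 and 107 CPM in cKO mice. Genes of dividing cells (3, Top2a the most abundant) summed to 49.1, 45.7 and 33.8 CPM in controls and 75.2, 60.0, 50.5 and 42.5 CPM in cKO mice. The sums of the groups overlapped in all 3 lists.

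Single genes of these lists lay in opposite directions. Among oligodendrocyte lineage genes, Pdgfra, a marker of precursors, measured 64.7, 64.3 and 63.1 CPM in controls and 124, 120, 66.2 and 126 CPM in cKO mice. Mog, a myelin gene, measured 7.63, 5.9 and 8.0 CPM in controls and 13.2, 14.9, 8.33 and 16.5 CPM in cKO mice. Both were above every control in every knockout before (log2 fold changes 0.77 and 0.89) and after the GC content and exon length correction (0.33 and 1.06), while Olig1 was at -0.6 and -0.18, with overlap.

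Endothelium genes (3, Cldn5 the most abundant) summed to 88.0, 143 and 103 CPM in controls and 68.5, 75.4, 118 and 91.3 CPM in cKO mice. Red blood cell genes (3, Hbb-bs the most abundant) summed to 129, 397 and 110 CPM in controls and 142, 49.1, 146 and 48.5 CPM in cKO mice, with control 2 highest, as for Slc17a7. The sums of both lists overlapped.

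Thalamus genes (4, Tcf7l2 the most abundant) summed to 452, 482 and 449 CPM in controls and 468, 629, 406 and 698 CPM in cKO mice, highest in the P2 mice cKO 2 and cKO 4. Cerebellar granule cell genes (4, Neurod1 the most abundant) summed to 6.02, 4.95 and 5.15 CPM in controls and 7.37, 9.64, 5.76 and 8.63 CPM in cKO mice. Hypothalamus and pituitary genes (4, Pomc the most abundant, Prl at 0 in all libraries) and choroid plexus genes (4, Kl the most abundant) summed to at most 7.79 and 4.72 CPM in any library.

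At an unadjusted p under 0.05 edgeR gave 2 oligodendrocyte lineage genes higher, 1 each higher for dividing cells and granule cells, 1 each lower for microglia, hypothalamus and pituitary, and choroid plexus, and 0 for endothelium, red blood cells and thalamus. DESeq2 called the same numbers in the same directions except for choroid plexus, where it called 0. limma-voom called 4 oligodendrocyte lineage genes (2 higher and 2 lower), 2 lower for microglia and 2 higher for granule cells. For endothelium and dividing cells it called 1 higher and 1 lower each. It called 1 higher for thalamus and 1 lower each for red blood cells, hypothalamus and pituitary, and choroid plexus. By these rules edgeR gave 16.7% of all genes higher and 13.7% lower, DESeq2 7.41% and 3.04%, and limma-voom 24.2% and 24.3%.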
